A study of Homo sapiens with 4 samples.

Results

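Among the genes measured in mH2A1.2 knockout and wild type breast cancer cells are 9 that encode variant histones other than macroH2A, or the proteins that deposit one of them. They are H2AZ1, H2AZ2, H2AX, H2AJ, H3-3A, H3-3B and H1-10, with DAXX and ATRX. All probes annotated to these genes under current or older symbols were taken, which gave 12 of the 47230 probes on the array, and each of the 9 genes was among the 11311 with a probe that entered the test. Of these, 11 had a detection p-value under 0.05 on at least 2 arrays and entered the test, as did 19752 probes in all. H3-3A had 3 probes, ATRX had 2 and each other gene had 1.

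The cells were MDA-MB-468, an established human breast cancer line, measured as total RNA on 4 Illumina bead arrays of 1 chip. In the mH2A1.2 knockout group, 2 arrays held RNA of cells labelled as lacking macroH2A1.2, a large histone H2A variant spliced from the gene MACROH2A1. In the wild type group, 2 arrays held RNA of the unmodified line, and the labels give no drug or other treatment for either group. The labels do not say whether the knockout cells were 1 clone or a pool, or whether replicates were grown separately. The spread that p-values rest on here may therefore be technical.

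Most histone mRNA is made in S phase from clustered genes, and it ends in a stem-loop in place of a poly(A) tail. Most variant histone genes, H2AX only in part, differ in this respect: they stand alone, are transcribed throughout the cell cycle and give polyadenylated mRNA. H2A.Z marks promoters and is exchanged into nucleosomes by the SRCAP and EP400 complexes. H2A.X is phosphorylated around DNA breaks, and H3.3 is deposited at active genes by HIRA and at telomeres and repeats by DAXX with ATRX.

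Across the arrays, 19817 and 19318 probes were detected in knockout, against 18753 and 18991 in wild type. The knockout arrays differed from each other by more than 2-fold at 1012 kept probes and the wild type arrays at 89, and each knockout array is therefore also set against wild type on its own. MACROH2A1, the targeted gene, gave log2 signals of 12.32 and 12.12 in knockout, against 13.04 and 12.96 in wild type, at its brightest probe. Another of its probes was 2.05-fold lower in knockout, another was 1.72-fold higher and the remaining one was not kept. The sources used here do not say where the deletion lies against these probes. In the list made for a basal breast line, EGFR, EPCAM, KRT8, KRT18 and LAMB3 were measured. Of these, EPCAM, KRT8 and KRT18 are epithelial genes that are not particular to basal cells. The probes for KRT5, KRT14, KRT16, CDH1 and CDH3 were not kept, and KRT6A, KRT6B and KRT17 had no probe. Of receptor genes that basal lines lack, ESR1 and ERBB2 each had 1 kept probe, that of ERBB2 being 1 of 3, and the PGR probe was not kept. ESR1 had log2 signals of 6.07 and 6.07 in knockout, against 5.91 and 5.91 in wild type, where it was not detected. The ESR1 probe was thus kept through its knockout arrays alone. At its kept probe ERBB2 was detected on all 4 arrays, with 8.94 and 9.11 in knockout, against 8.45 and 8.83 in wild type, which goes against that list's name. None of 4 endothelial markers was kept, nor were PTPRC and CD3E of the leukocyte list or COL1A2, COL3A1, LUM and FAP of the fibroblast list. The 4 measured leukocyte genes summed to 1593 and 3096 in knockout, against 1303 and 2092 in wild type, on the linear normalized scale. The 3 measured fibroblast genes summed to 276 and 340 in knockout, against 218 and 190 in wild type. Their log2 differences were 1.08 for PDGFRB, 0.27 for COL1A1 and -0.0004 for DCN. COL1A1 was kept through its knockout arrays alone, so the filter favoured its direction and its place in this sum is no support. The part of other cells in any result was not tested. No kept probe of the array passed limma's moderated test after Benjamini-Hochberg adjustment, the smallest adjusted p being 0.127. At an unadjusted limma p under 0.05 there were 3415 probes, 17.3% of those tested. Of all kept probes 8.23% were higher and 9.06% lower in knockout at that level. Of the 3415, 47.6% were higher, or 85.3% of 2282 such probes when arrays were scaled to equal medians, which moved the median difference of all kept probes to 0.09 from -0.01 on the log2 scale.

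H3-3B, one of the 2 genes for histone H3.3, read lower on both knockout arrays, whereas H3-3A, which encodes the same protein, lay close to wild type. The H3-3B probe ILMN_1695706 had raw signals of 359 and 435 on the knockout arrays, against 725 and 621 on the wild type arrays. After normalization its log2 signals were 7.81 and 8.37 in knockout, against 9.20 and 8.84 in wild type. Both knockout values lay below both wild type values, and the probe was detected on all 4 arrays. The difference was -0.93 ± 0.26 (log2, SE, n = 2 per group), or 1.90-fold lower in knockout. Its unadjusted limma p was 0.0221, and it did not pass over all kept probes (limma adjusted p = 0.218). In RNA of whole cultures, fewer cells with a transcript and less of it per cell cannot be told apart. In the authors' processed table the same probe had log2 values of 8.24 and 8.69 in knockout, against 9.38 and 9.06 in wild type. Without wild type replicate 1 the unadjusted limma p was 0.112.

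The 3 probes of H3-3A gave nearly the same picture as one another. ILMN_1656082 had log2 signals of 13.51 and 13.20 in knockout, against 13.40 and 13.41 in wild type. ILMN_2106331 had 13.13 and 12.84 in knockout, against 13.07 and 13.13 in wild type. ILMN_1699015 had 12.91 and 12.66 in knockout, against 12.87 and 12.90 in wild type. At each probe the first knockout array lay above both or level with the higher wild type value and the second lay below both, so the groups overlapped. The differences were -0.05, -0.12 and -0.10 on the log2 scale, with limma adjusted p of 0.921, 0.756 and 0.771. Their 95% confidence intervals ran from -0.45 to 0.36, from -0.51 to 0.28 and from -0.46 to 0.26. With arrays scaled to equal medians the 3 differences were above 0, at 0.19, 0.10 and 0.10. Many processed pseudogenes derive from H3-3A, and whether these probes also read their transcripts was not tested.

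Within each array, H3-3B was also set against H3-3A, a ratio chosen after both genes' values were seen, so that it restates them and is given with no test. The log2 ratio of H3-3B to H3-3A changed by -0.88, -0.81 and -0.83 between knockout and wild type at the 3 H3-3A probes. At the brightest of them the within-group SD was 0.61 in knockout and 0.26 in wild type (n = 2 each). The groups did not overlap at any of the 3, which share the 1 H3-3B probe and are not independent of each other.

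The promoters of the H3.3 genes differ, which is why they are shown here, taken from RefSeq (GRCh38.p14) as the 250 bases before the transcription start. Capitals mark CCAAT or, on the other strand, ATTGG, the box bound by the factor NF-Y, which is common in histone gene promoters. The H3-3B stretch is chr17:75779780-75780029 on the minus strand, and the H3-3A stretch is chr1:226062466-226062715 on the plus strand, before the last of 4 RefSeq starts.
H3-3B: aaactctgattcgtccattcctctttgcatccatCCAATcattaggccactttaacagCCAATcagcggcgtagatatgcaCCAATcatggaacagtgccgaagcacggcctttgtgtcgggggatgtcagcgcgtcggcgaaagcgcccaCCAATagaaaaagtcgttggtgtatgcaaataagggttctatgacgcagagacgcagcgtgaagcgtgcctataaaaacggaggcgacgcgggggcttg
H3-3A: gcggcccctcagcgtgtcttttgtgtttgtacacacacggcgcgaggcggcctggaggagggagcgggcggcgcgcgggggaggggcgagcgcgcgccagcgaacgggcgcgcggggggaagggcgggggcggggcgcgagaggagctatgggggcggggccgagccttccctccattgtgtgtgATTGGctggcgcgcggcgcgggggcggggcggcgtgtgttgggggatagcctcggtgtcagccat
H3-3B held 4 matches, at 216, 192, 169 and 99 bases before its start, and H3-3A held 1, at 65 bases. At the other 3 starts of H3-3A there were 1, 1 and 0 matches. Of 35116 promoters of this length 32% held at least 1 match and 2.93% held 3 or more. H3-3B also held a TATA box, searched as TATAA on both strands, 29 bases before its start, which 18.9% of promoters held anywhere in the window and no H3-3A start did.

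**Figure D1:**
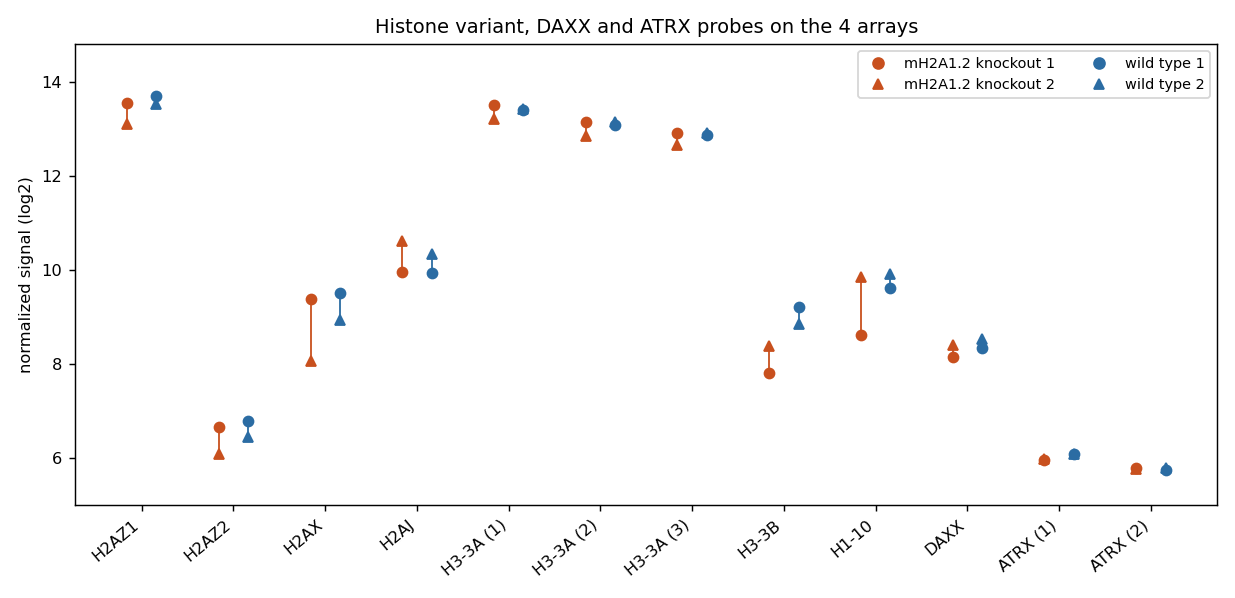
Normalized log2 signal of the 12 probes on each array, with mH2A1.2 knockout arrays in orange on the left and wild type arrays in blue on the right of each pair, and circles and triangles for replicates 1 and 2. Numbers in brackets tell apart probes of 1 gene, brightest first, and the lines join the 2 arrays of a group. H3-3B has both knockout values, 7.81 and 8.37, below the wild type values of 9.20 and 8.84.

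H3-5, a retrotransposed copy of H3-3B that encodes a further H3 variant, also read lower on both knockout arrays. Its kept probe ILMN_1769705 had log2 signals of 10.72 and 10.10 in knockout, against 11.61 and 11.29 in wild type. The difference was -1.04 ± 0.27 (log2, SE, n = 2 per group), or 2.06-fold lower in knockout (limma unadjusted p = 0.0177, adjusted p = 0.202). H3-5 and H3-3B are close in sequence, so which of them each probe reads is uncertain. The other H3-5 probe was not kept.

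The genes for H2A.Z and H2A.X read lower on knockout replicate 2 than on any other array, and on knockout replicate 1 they lay within the wild type range. H2AZ1, which encodes the main H2A.Z protein, had log2 signals of 13.54 and 13.10 in knockout, against 13.70 and 13.53 in wild type. H2AZ2, which encodes a nearly identical protein, had 6.65 and 6.09 in knockout, against 6.77 and 6.44 in wild type. H2AX had 9.38 and 8.06 in knockout, against 9.51 and 8.93 in wild type. In each of the 3 genes the first knockout array lay between the wild type arrays and the second below both, so the groups overlapped. The differences were -0.29 ± 0.19 for H2AZ1, -0.24 ± 0.25 for H2AZ2 and -0.50 ± 0.52 for H2AX (log2, SE, n = 2 per group). None passed, with limma adjusted p of 0.525, 0.701 and 0.702. The 95% confidence intervals ran from -0.83 to 0.24 for H2AZ1, from -0.93 to 0.45 for H2AZ2 and from -1.95 to 0.95 for H2AX.

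These values depended on knockout replicate 2, but replicate 2 read below replicate 1 in wild type too. Wild type replicate 2 minus replicate 1 was -0.17 for H2AZ1, -0.33 for H2AZ2 and -0.58 for H2AX. Each knockout array read below the wild type array of the same number. With replicate number as a block in the model, the SE was 0.13, 0.12 and 0.23. The limma adjusted p was then 0.295, 0.352 and 0.310. Against the mean of the wild type arrays, H2AX differed by 0.17 on knockout replicate 1 and by -1.16 on knockout replicate 2. H2AZ1 differed by -0.07 and -0.51, and H2AZ2 by 0.04 and -0.52. With knockout replicate 1 left out, and the remaining knockout array taken to have the wild type spread, H2AX passed narrowly (limma adjusted p = 0.04997), as did 3897 of all kept probes, and H2AZ1 did not (adjusted p = 0.0751). With knockout replicate 2 left out, H2AX and H2AZ2 turned positive, at 0.17 and 0.04. A list of 20 proliferation genes had a median of -0.27 on knockout replicate 1 and -0.55 on knockout replicate 2, against the wild type mean. Their median over both was -0.43, or -0.18 with arrays scaled to equal medians. Of these genes 18 had negative differences, 8 of them at an unadjusted limma p under 0.05, where 11.4% of all 11311 genes were lower at that level. Among them, the mitotic transcription factor FOXM1 differed by -1.04 ± 0.18, the mitotic kinases AURKB and BUB1 by -0.65 ± 0.10 and -0.60 ± 0.16, and RRM2, of ribonucleotide reductase, by -2.53 ± 0.70. The sum of their levels on the linear normalized scale was 36720 and 26330 in knockout, against 41955 and 42249 in wild type. The part of proliferation in the H2A.Z and H2A.X values was not tested.

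The promoters of these 3 genes are given because the 4 arrays stood in the same order for each: wild type replicate 1 highest, then knockout replicate 1, wild type replicate 2 and knockout replicate 2. That order was seen in these data, and same-numbered arrays deviated together over all kept probes (r = 0.490). Whether the 3 genes share control through their promoters was not tested. Each is the 250 bases before the RefSeq start (GRCh38.p14), with the same capitals. H2AZ1 is chr4:99950276-99950525, H2AZ2 is chr7:44848088-44848337 and H2AX is chr11:119095466-119095715, all on the minus strand.
H2AZ1: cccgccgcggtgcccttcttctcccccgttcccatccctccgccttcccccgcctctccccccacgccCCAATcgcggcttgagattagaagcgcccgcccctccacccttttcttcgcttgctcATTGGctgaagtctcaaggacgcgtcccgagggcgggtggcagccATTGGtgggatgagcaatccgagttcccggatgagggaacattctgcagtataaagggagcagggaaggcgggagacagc
H2AZ2: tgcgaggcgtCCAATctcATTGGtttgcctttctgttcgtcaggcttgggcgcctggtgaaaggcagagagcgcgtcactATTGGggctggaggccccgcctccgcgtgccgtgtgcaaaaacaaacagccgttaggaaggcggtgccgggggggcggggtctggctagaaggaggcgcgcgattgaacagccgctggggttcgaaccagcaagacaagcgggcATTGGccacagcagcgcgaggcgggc
H2AX: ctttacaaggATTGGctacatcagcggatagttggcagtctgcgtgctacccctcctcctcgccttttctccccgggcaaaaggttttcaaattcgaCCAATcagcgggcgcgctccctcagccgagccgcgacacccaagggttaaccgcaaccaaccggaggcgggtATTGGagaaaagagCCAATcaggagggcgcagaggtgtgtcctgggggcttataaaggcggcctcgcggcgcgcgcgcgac
H2AZ1 held 3 CCAAT boxes, H2AZ2 held 4 and H2AX held 4. H2AX held the CHR element, a cell cycle element of mitotic genes searched as TTTGAA on both strands, 164 bases before its start, as did 13.3% of promoters somewhere in this window. The E2F motif searched, GGCGGGAA on both strands, was in none of these 3 windows and in 2.72% of all. The H2AJ promoter, on chromosome 12, also held 3 CCAAT boxes, and that of H1-10 held 0. DAXX and ATRX promoters were not analysed here.

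**Figure D2:**
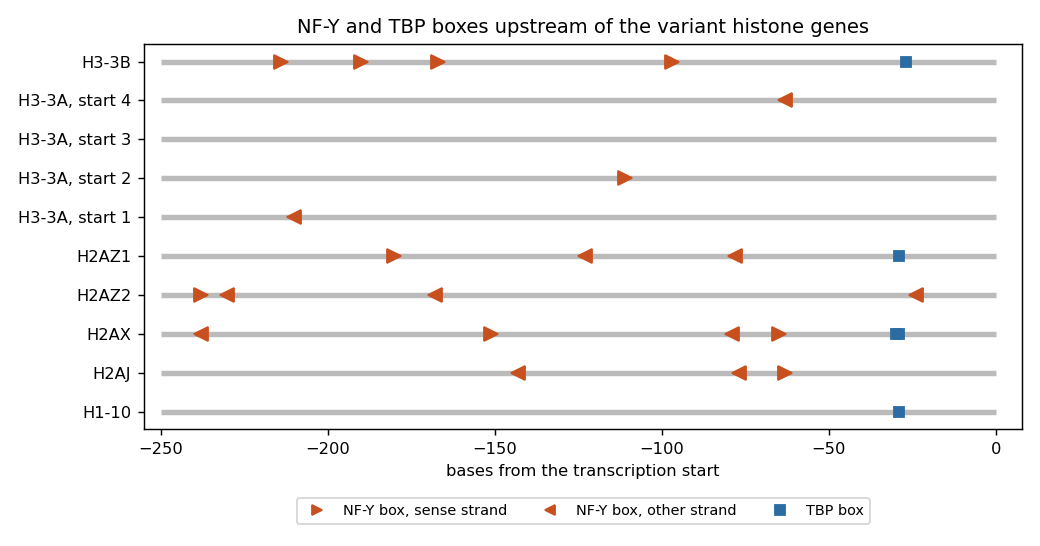
Positions of the NF-Y box (CCAAT or its complement, orange arrowheads showing the strand) and of the TBP box (TATAA, blue squares) in the 250 bases before the RefSeq starts of the 7 genes with a promoter in the table, the x axis giving bases from the transcription start. H3-3B, H2AZ2 and H2AX have 4 NF-Y boxes each, H2AZ1 and H2AJ have 3, and each H3-3A start has at most 1.

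H2AJ, which encodes an H2A variant known to build up in senescent fibroblasts, was the 1 gene of the 9 with a positive difference. Its probe ILMN_1708728 had log2 signals of 9.95 and 10.62 in knockout, against 9.94 and 10.34 in wild type. The lower and the higher array of each group lay close together across groups, and the groups overlapped. The difference was 0.14 ± 0.29 (SE, n = 2 per group), with a 95% confidence interval from -0.67 to 0.96 and a limma adjusted p of 0.867. It was -0.19 without knockout replicate 2 and -0.05 without wild type replicate 1.

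H1-10, a linker histone that binds DNA where it enters and leaves the nucleosome, read low on 1 array. Its probe ILMN_1773964 had log2 signals of 8.60 and 9.84 in knockout, against 9.62 and 9.91 in wild type. Knockout replicate 1 lay below all other arrays, and knockout replicate 2 lay between the wild type arrays. The difference was -0.55 ± 0.46 (SE, n = 2 per group), with a 95% confidence interval from -1.82 to 0.73 and a limma adjusted p of 0.622. Without knockout replicate 1 it was 0.07. Without knockout replicate 2 it was -1.16 (limma adjusted p = 0.0731). Of 9 further linker histone genes listed, H1-2, a replication-dependent H1, was the one with a kept probe, and it had 9.90 and 10.51 in knockout, against 10.63 and 10.89 in wild type. The H1-2 difference was -0.55 ± 0.25 (log2, SE, n = 2 per group), with an unadjusted limma p of 0.0924.

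**Figure D3:**
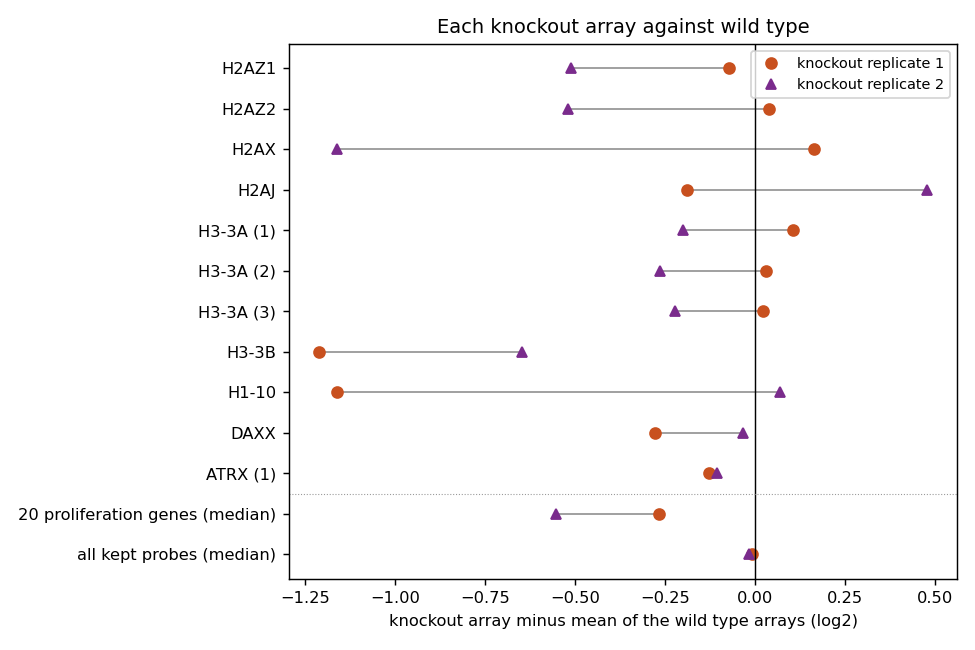
Log2 signal of each knockout array minus the mean of the wild type arrays, for the 11 kept probes and, below the dotted line, the median of 20 proliferation genes and of all kept probes. H2AX, H2AZ1 and H2AZ2 lie lowest on knockout replicate 2 (-1.16, -0.51 and -0.52), H1-10 on knockout replicate 1 (-1.16), and H3-3B is below 0 on both (-1.21 and -0.65).

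DAXX, the chaperone that holds H3.3, showed little difference, and ATRX, the remodeller that works with it, was read near background. DAXX had log2 signals of 8.15 and 8.39 in knockout, against 8.33 and 8.52 in wild type, with overlapping groups. The DAXX difference was -0.15 ± 0.15 (SE, n = 2 per group; limma adjusted p = 0.668), its 95% confidence interval ran from -0.56 to 0.25, and it was 0.11 with arrays scaled to equal medians. The brighter ATRX probe, ILMN_1666885, had raw signals of 143.5 and 142.3 in knockout, against 156.1 and 158.3 in wild type. Its detection p-values were 0.229 and 0.166 in knockout, against 0.0234 and 0.0247 in wild type. It was thus not well above background in knockout, and no fold is given for it. The difference between these near-background signals, -0.12 ± 0.10 on the log2 scale, did not pass (limma adjusted p = 0.623). The dimmer ATRX probe was not detected on any array, with detection p-values from 0.909 to 0.990.

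Taking the genes as a set, 10 of the 11 kept probes had negative differences, where 52.1% of all kept probes did. The 3 H3-3A probes are of 1 gene. At 1 probe per gene 8 of 9 were negative, where 50.8% of all genes were. The median of the 11 probes was -0.15 on the log2 scale, against -0.01 over all kept probes. The sign count depended on scaling and on 1 array. With arrays scaled to equal medians 6 of 11 were negative, where 34.3% of all were, and without knockout replicate 2 it was 6 of 11, where 51.6% of all were. At an unadjusted limma p under 0.05 there was 1 probe, that of H3-3B, lower in knockout, where 9.06% of kept probes were lower at that level. Groups did not overlap at 2 of the 11 probes, H3-3B and ATRX, both with knockout below. The ATRX probe was kept through its wild type arrays alone. The filter thus favoured its direction, and its place in this count and in the sign count is no support. Over all kept probes 49.9% had groups that did not overlap, 26.2% with knockout below and 23.8% with knockout above. After adjustment over all kept probes 0 of the 11 passed limma's test.

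**Figure D4:**
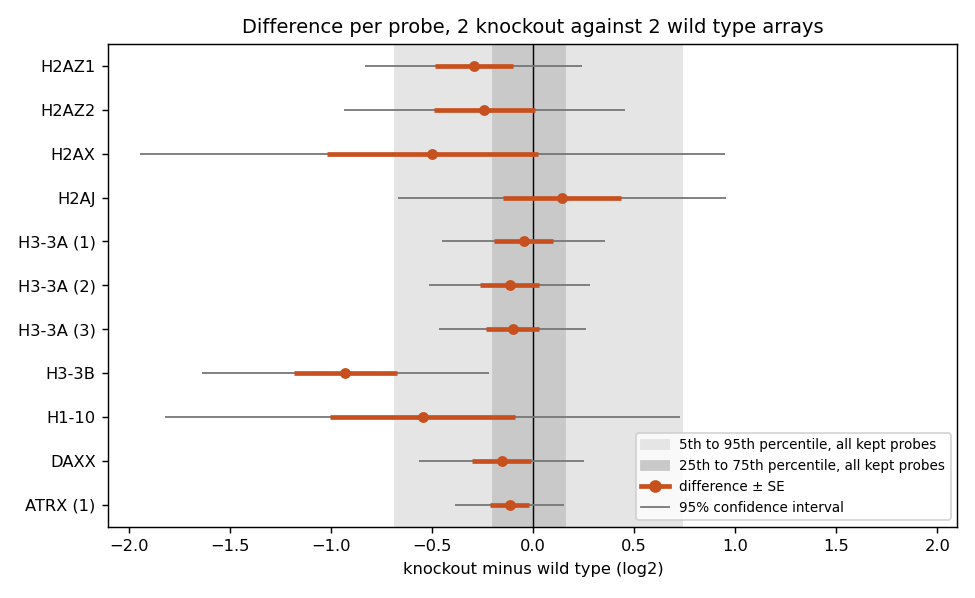
Difference between knockout and wild type on the log2 scale for the 11 kept probes (points), with the moderated SE as thick bars and the 95% confidence interval as thin lines. Grey bands give the middle of all 19752 kept probes. The interval of H3-3B, from -1.64 to -0.22, is the one that does not reach 0.

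The genes whose products deposit or remove H2A.Z differed in both directions. Of 27 listed, 23 were measured, and at their brightest probe 4 were higher and 3 lower at an unadjusted limma p under 0.05, where 10% and 11.4% of all genes were, 21.4% together. Groups did not overlap in 15 of the 23, 8 with knockout below and 7 above, where 54.1% of all genes did not overlap, 28.2% below and 25.9% above. ZNHIT1, a subunit of the SRCAP complex, had log2 signals of 10.95 and 11.08 in knockout, against 10.37 and 10.42 in wild type, a difference of 0.62 ± 0.11 (SE, n = 2 per group). MORF4L1 and MORF4L2, related subunits of the TIP60 complex, differed by 0.56 ± 0.13 and 0.47 ± 0.11. CFDP1, a relative of yeast Swc5 of the H2A.Z exchange complex, differed by 0.70 ± 0.17. INO80C and INO80, of the remodeller linked to H2A.Z removal, differed by -0.47 ± 0.10 and -0.44 ± 0.12, and ACTL6A, an actin-related subunit, by -0.63 ± 0.21. The last 3 of these genes by p, CFDP1, INO80 and ACTL6A, were named after their values were seen. The limma adjusted p was 0.146 for ZNHIT1 and higher for the others, and the list median was 0.05, against -0.005 over all genes. That median was 0.26 with arrays scaled to equal medians, and with 1 array left out it ran from -0.05 to 0.10, below 0 in 3 of the 4 fits.

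Genes that deposit or read H3.3 beside DAXX and ATRX differed in both directions. All 14 listed were measured, 6 of them negative, with a median of 0.02, which was -0.17 without knockout replicate 1. At an unadjusted limma p under 0.05, 1 of the 14 was lower and 0 higher, where 11.4% of all genes were lower and 10% higher, so the list's count is no higher than that of all genes. That gene was TRIM28, a corepressor that recruits SETDB1, with log2 signals of 9.40 and 9.65 in knockout, against 10.26 and 10.43 in wild type. The TRIM28 difference was -0.82 ± 0.14 (SE, n = 2 per group; limma adjusted p = 0.146). UBN1, of the HIRA complex, differed by -0.36 ± 0.13, USP7, a DAXX-binding deubiquitinase, by -0.29 ± 0.13, and SETDB1, an H3K9 methyltransferase, by 0.49 ± 0.26.

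Most of the other histone chaperones had negative differences, as did the proliferation genes, whose median was -0.43. Of 17 measured genes 12 differed negatively, where 50.8% of all genes did, and the list median was -0.39. In this list 5 were lower and 0 higher at an unadjusted limma p under 0.05, where 11.4% of all genes were lower and 10% higher, and 0 passed after adjustment over all kept probes. Both knockout values lay below both wild type values in 10 of the 17, where 28.2% of all genes had this order. SSRP1, a subunit of the FACT complex, did not overlap between groups and had a difference of -0.77 ± 0.10 (SE, n = 2 per group; limma adjusted p = 0.135). CHAF1A, the large subunit of the replication-coupled chaperone CAF-1, differed by -0.70 ± 0.21. The H2A-H2B chaperone NAP1L4 had log2 signals of 10.96 and 10.90 in knockout, against 11.27 and 11.39 in wild type, a difference of -0.40 ± 0.11. Differences were -0.58 ± 0.18 for the nucleolar protein NCL and -0.44 ± 0.15 for SET, SET being named after its value was seen. The list median was -0.19 with arrays scaled to equal medians, -0.25 without background correction and -0.21 without knockout replicate 2. The part of proliferation in these values was not tested.

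In the signalling that H2AX phosphorylation serves, 13 of 19 listed genes were measured, with a median of 0.05, and 1 was higher and 2 lower at an unadjusted limma p under 0.05, a total near the 21.4% of all genes. The median was 0.23 with arrays scaled to equal medians and -0.09 without knockout replicate 1. ATM, a kinase that phosphorylates H2A.X at breaks, had log2 signals of 9.51 and 9.78 in knockout, against 8.87 and 8.96 in wild type. PPM1D, a phosphatase that removes this mark, had 6.93 and 6.76 in knockout, against 7.82 and 7.57 in wild type. Neither pair of groups overlapped, with differences of 0.73 ± 0.14 for ATM and -0.85 ± 0.15 for PPM1D (SE, n = 2 per group; limma adjusted p = 0.158 and 0.144). NBN, of the complex that senses breaks, differed by -0.76 ± 0.24, and RNF8, the ligase recruited to phosphorylated H2A.X through MDC1, by -0.52 ± 0.21.

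Among other histone genes, the centromeric H3 variant CENPA had log2 signals of 9.16 and 8.11 in knockout, against 9.77 and 9.59 in wild type, at its brightest probe. Its difference was -1.04 ± 0.39 (SE, n = 2 per group), with an unadjusted limma p of 0.0557, and its dimmer probe differed by -0.51 with overlapping groups. Of the 14 other variant genes listed, 4 were measured. These were MACROH2A1, H3-5, CENPA and MACROH2A2, the last differing by 0.04. Of 30 measured clustered core histone genes, 2 were higher and 3 lower at an unadjusted limma p under 0.05, where 10% of all genes were higher and 11.4% lower. Their median was -0.02, and -0.23 over the genes detected at p under 0.01 on all 4 arrays. H2BC21 differed by -1.12 ± 0.13, H2AC6 by 0.72 ± 0.12, H2BC12 by 0.59 ± 0.11 and H2AC11 by -0.50 ± 0.12 on the log2 scale, with H2BC11, named after its value was seen, at -0.76 ± 0.26. Clustered histone genes share much of their sequence, so a probe named for one may also read another. Some of the 30, such as H3C3 and H3C7, were detected on only 1 array of each group. Most mRNA of clustered histone genes, H1-2 among them, lacks a poly(A) tail. How far the labelling used here reads such mRNA was not tested.

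**Figure D5:**
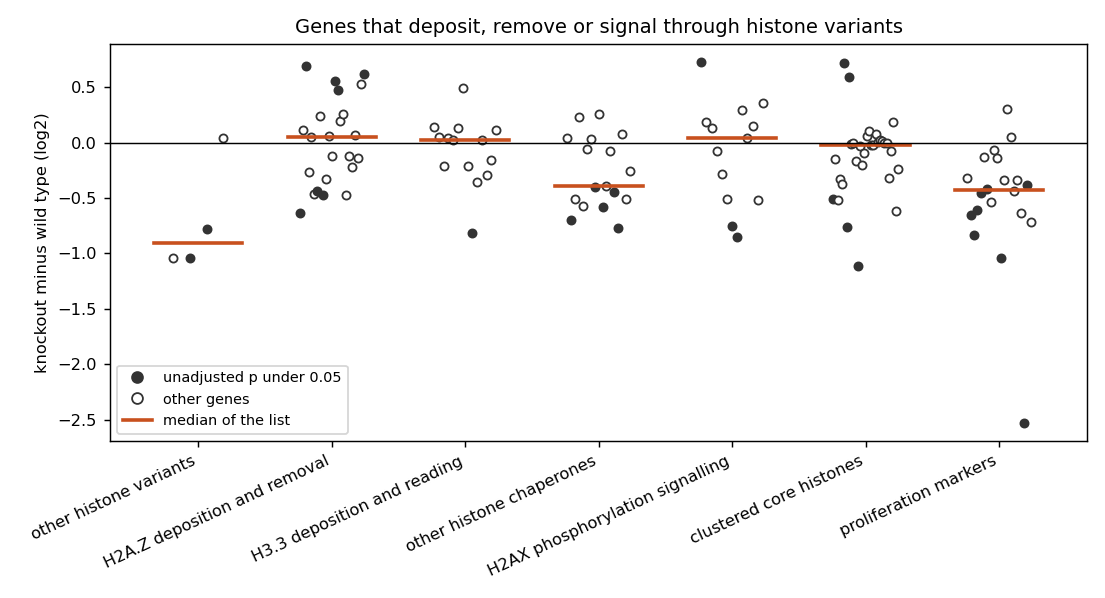
Difference between knockout and wild type on the log2 scale for each measured gene of 7 lists at its brightest kept probe, filled where the unadjusted limma p was under 0.05, with an orange line at the list's median. The chaperone and proliferation lists have medians of -0.39 and -0.43, the H2A.Z, H3.3, H2AX and core histone lists medians between -0.02 and 0.05.

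The profiles most like that of H3-3B over the 4 arrays were those of DYRK2, DCP2 and TNFSF9. Likeness was the root mean square difference between profiles centred on their own mean, over 11302 other genes, and was 0.129, 0.134 and 0.138 on the log2 scale. DYRK2 had log2 signals of 7.01 and 7.41 in knockout, against 8.07 and 7.99 in wild type. For H2AJ the nearest profiles were those of DIAPH2, ZNF462 and TMEM30A, at 0.0225, 0.0287 and 0.0384. All these genes were picked for likeness from 11302 over only 4 arrays, and whether they share control with H3-3B or H2AJ was not tested.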

How the data were processed

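RNA of 4 MDA-MB-468 samples, 2 mH2A1.2 knockout and 2 wild type, was labelled with biotin using an Ambion MessageAmp kit and read on Illumina arrays, per the labels' protocols. The submitters' processing notes name GenomeStudio. The deposited intensity values, per the file headers, are average bead signals per probe. Their lowest values of 99.5 to 104 are those of signals without background subtraction. Beside each the authors deposited a detection p-value, which is small where few negative controls read as high as the probe. The authors' processed log2 values hold 47164 probes. Their medians were 6.46 and 6.45 in knockout and 6.46 and 6.45 in wild type, each column's deviations correlated at 0.960 to 0.968 with its own array's and at most 0.501 with another's, while how they were normalized is not stated in the sources used here.

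Arrays were assigned to samples by the labels' descriptions. Signals were background-corrected with limma's normexp method from detection p-values (offset 16), then quantile normalized and log2 transformed, in R 4.3.3 with limma 3.58.1. The 2 groups were compared in a limma linear model, knockout minus wild type, two-sided, with Benjamini-Hochberg adjustment over 19752 kept probes and a threshold of 0.05. Gene lists were read at each gene's brightest kept probe. Probes were named from the platform annotation of GEO, where 30074 probes have 1 symbol, 8 several and 17148 are unlisted, with 30035 matched by gene number to a gene table of GRCh38.p14. Promoters were present for 7 of 9 genes. Of the listed symbols, 3 matched no row of that table.

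The genes and lists were chosen with earlier results of these data known. Named from each list are up to 4 genes with the smallest p, and others are said to be named after their values were seen. Alternatives were no background correction, offset 50, equal-median scaling, no or a stricter detection filter, the authors' values, 1 probe per gene, a variance trend over intensity (plain or robust), a replicate block and each array left out. With 2 arrays per group, their number limits the precision.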

Additional observations from a re-analysis of the deposited data

How the results depend on the processing

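Across 14 alternatives the 11 kept probes gave 150 further differences. Of these, 137 kept the sign and side of the threshold of the reported value and 12 turned sign. The remaining 1, at -1.16, was H2AX without knockout replicate 1, a fit with 1 knockout array. The H3-3B difference stayed below 0 in all 14, from -1.21 to -0.65, with limma adjusted p from 0.0789 to 0.846. Scaling arrays to equal medians turned the 3 H3-3A probes to 0.19, 0.10 and 0.10 and DAXX to 0.11, and gave 13 in place of 31 listed genes at an unadjusted p under 0.05. With 1 array left out, H3-3B ran from -1.21 to -0.65, H2AX from -1.16 to 0.17, H2AZ2 from -0.52 to 0.040, H2AJ from -0.19 to 0.48, H1-10 from -1.16 to 0.071 and the H3-3A probes from -0.20 to 0.11, from -0.26 to 0.032 and from -0.22 to 0.023. Over the same fits, limma calls among all kept probes after adjustment ran from 0 to 3897, the highest without knockout replicate 1 and 3 without knockout replicate 2. Probes at an unadjusted p under 0.05 ran from 1122 to 6840, against 3415 with all arrays, and listed genes at that level from 12 to 53. Histone variant, DAXX and ATRX probes at that level ran from 0 to 4, and after adjustment from 0 to 1. These fits have fewer samples, and the cause of the other moves was not tested. Same-numbered samples deviated together (r = 0.490) and held adjoining chip positions, A with B and C with D. Positions B and C, of different replicate numbers, adjoin too. There are 2 same-numbered pairs, the labels name no shared source, and what joined the samples was not tested. With the replicate block, 4567 probes had an unadjusted limma p under 0.05, 0 passed after adjustment, and the block changed no call. The limma adjusted p of H3-3B was then 0.186. Dim probes, those of ATRX and H2AZ2, are limited by signal over background.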
